A study of Homo sapiens with 14 samples.

Results

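The mRNAs of NF-kB-driven inflammation were followed through the polysomes of a breast cancer cell line depleted of DAP5. They were taken by name, as 10 of the 58434 gene rows of the count table, and comprised CXCL1, CXCL2, CXCL3, IL1A, IL1B, CSF2, NFKB1, RELB, NFKBIA and TNFAIP3. MDA-MB-231, a triple-negative, mesenchymal-like human breast cancer line, carried a stable doxycycline-inducible short hairpin RNA, either a non-silencing control (MB-231-shNSi) or a hairpin against DAP5 (MB-231-shDAP5), the eIF4G homolog encoded by EIF4G2. Both kinds of cell received 1 µg per ml doxycycline for 6 days, so the controls shared the drug and the vector. RNA was sequenced from total mRNA, light polysomes (poorly translated mRNA) and heavy polysomes (well-translated mRNA) of 2 cultures of each kind, and from a moderate pool of the shNSi cultures only, which gave 14 libraries. The shDAP5 light libraries were titled light but carried a code like that of the shNSi moderate pool and were taken by title, and the shDAP5 libraries titled as total polysome were taken as total mRNA.

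NF-kB is a family of dimeric transcription factors held in the cytoplasm by IkB proteins until a receptor signal has IkB degraded. The freed dimers switch on chemokines and cytokines and also their own brakes, IkBα and A20, which limits the response in time. In basal-like breast cancer lines this programme is often active without added stimulus, and many of its mRNAs are short-lived because of AU-rich elements in their 3′ untranslated regions.

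The library totals lay between 25899838 and 30795910 counts. EIF4G2, the target of the hairpin, was at 1442 and 1396 CPM (normalised read count, the reads of a gene scaled to a common library size) in the total mRNA of the 2 shNSi cultures and at 541 and 749 CPM in shDAP5, a log2 change of -1.11 (SE 0.18, adjusted p = 0.0172). The EIF4G2 value was lower in both shDAP5 cultures, but its call was lost with all 14 libraries in 1 fit (-1.13), limma (-1.08), library size without TMM (-1.07) and without shDAP5 culture 1 (-0.90). The p-value above, like every adjusted p given here, came from the quasi-likelihood test of edgeR with Benjamini-Hochberg adjustment over all genes tested. The mesenchymal markers VIM, CD44, AXL, CAV1 and MSN were all above 100 CPM in each library. Of 5 markers taken as low in this line, PGR had no read, CDH1 at most 8 counts and ESR1 at most 16, whereas EPCAM had 76 to 169 counts and ERBB2 1186 to 2692 counts (35.7 to 99.9 CPM). Of the markers of myeloid cells, which are a common source of these cytokines, PTPRC, LYZ and ITGAM had at most 7, 5 and 6 counts in any library and CD68 at most 24, whereas CD14 had 11 to 66 and CSF1R 18 to 190 counts. The summed level of the 6 markers ranged from 1.29 to 8.02 CPM in shNSi and from 2.51 to 4.80 CPM in shDAP5. The summed T cell markers reached at most 0.0677 CPM and the summed endothelial markers at most 0.735 CPM. Those of fibroblasts summed to 9.11 to 83.8 CPM in shNSi and to 8.81 to 22.2 CPM in shDAP5, with COL1A1 at 7.52 to 80.3 CPM and DCN at most 2 counts. With 2 cultures against 2, the smallest p of an exact two-sided permutation test of 1 gene is 0.333, so the tests below borrow their estimate of the spread from all genes.

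CXCL1, CXCL2 and CXCL3 encode closely related chemokines that attract neutrophils and lie near each other on chromosome 4, at chr4:73869393-73871242, chr4:74097035-74099293 and chr4:74036589-74038807 (GRCh38, GENCODE release 29). The counts had been made on the older build hg19, so these positions serve only to identify the genes. IL1A (chr2:112773915-112784590) and IL1B (chr2:112829751-112836903), which encode the interleukin-1 cytokines, are also neighbours, and CSF2 (chr5:132073790-132076170) encodes the growth factor GM-CSF. NFKB1 (chr4:102501329-102617302) encodes p105 and its product p50, and RELB (chr19:45001430-45038198) a subunit of the non-canonical pathway. NFKBIA (chr14:35401511-35404749) encodes IkBα, and TNFAIP3 (chr6:137867188-137883312) the ubiquitin-editing enzyme A20. TNFAIP3 overlaps an antisense gene on the other strand, AL357060.1, and reads of the pair can be told apart only if strand was used in counting, which the name of the deposited table hints at by the abbreviation rev but no protocol states. The CXCL transcripts share 5.73%, 9.24% and 5.26% of their 50-base stretches with another member, in the order CXCL1, CXCL2, CXCL3, so a small part of their counts may be split between them, whereas the other members share none.

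The promoters were searched for the NF-kB motif, which bears on the members as a list of NF-kB genes. The NF-kB consensus decamer, searched by its standard degenerate form on both strands, was present within 250 bases before to 50 bases after the start site of 6 of the 9 members with an entry in the RefSeq promoter table used, against 5.91% of all 35116 promoters. No match was found in the windows of IL1A, IL1B and CSF2, and RELB was not searched. The sites are shown with 10 bases on either side, 5′ to 3′ on the strand of the gene, with the decamer in capitals (GRCh38.p14, RefSeq). The decamer reads in the sense direction in the first 4 and in the antisense direction in NFKBIA and TNFAIP3, and in the CXCL genes a further antisense match overlaps the sense match by all but a single base.
CXCL1, chr4:73869304-73869333, plus strand: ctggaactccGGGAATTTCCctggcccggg
CXCL2, chr4:74099254-74099283, minus strand: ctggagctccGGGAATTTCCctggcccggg
CXCL3, chr4:74038749-74038778, minus strand: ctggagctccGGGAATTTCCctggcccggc
NFKB1, chr4:102501300-102501329, plus strand: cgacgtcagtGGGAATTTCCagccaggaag
NFKBIA, chr14:35404811-35404840, minus strand: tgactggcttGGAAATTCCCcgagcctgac
TNFAIP3, chr6:137867182-137867211, plus strand: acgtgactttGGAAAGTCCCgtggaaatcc
The decamer begins 79, 78 and 79 bases before the start site in CXCL1, CXCL2 and CXCL3, and 49 bases before it in NFKB1. TNFAIP3 holds another antisense match 55 bases before its start site. These distances run from RefSeq start sites, which in CXCL2, CXCL3, NFKB1 and TNFAIP3 lie inside the GENCODE span given above. A match of letters is a description of these windows and not evidence of binding.

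The 3′ untranslated regions were compared next, since AU-rich elements are the other feature for which cytokine mRNAs are known. The pentamer ATTTA occurred 10 times in CXCL2, 8 times in CSF2, 7 times in CXCL3, 6 times in IL1B, 5 times each in CXCL1, IL1A and TNFAIP3, 3 times each in NFKB1 and NFKBIA, and not at all in RELB. Thus 7 of the 10 had at least 5 copies, against 28% of 12288 genes. Of the 9 members whose region was no longer than the 1152 bases of IL1A, 6 had at least 5 copies, against 3.72% of the genes within that length. CSF2 was the densest, with 25.2 copies per kb. The 30-base windows richest in the pentamer, from the GENCODE transcripts with ATTTA in capitals, are shown for the 6 secreted members.
CXCL1: aagtcttctATTTATTTATTTAttcattag
CXCL2: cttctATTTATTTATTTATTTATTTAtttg
CXCL3: gttctacttATTTAtgtATTTAtttttgaa
CSF2: aaaatATTTATTTATTTATTTATTTAagtt
IL1A: tATTTAtatatgtATTTAtaaatatATTTA
IL1B: cgcttccctATTTATTTATTTAtttgtttg
CXCL2 and CSF2 each hold 5 overlapping copies in the window, CXCL1 and IL1B hold 3 overlapping copies, IL1A holds 3 separate ones and CXCL3 holds 2.

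In total mRNA the 10 mRNAs covered a wide range of abundance. Per kb of transcript, so that genes of different length can be set side by side, the mean level over the 4 total mRNA libraries was 66.9 CPM per kb for IL1B, 36.6 for NFKBIA, 16.4 for NFKB1, 9.75 for CXCL2, 8.02 for RELB, 7.19 for CXCL1, 6.41 for CSF2, 3.41 for CXCL3, 3.36 for TNFAIP3 and 1.17 for IL1A. The 4 libraries of IL1B (46.3 to 104) lay above all 4 of NFKBIA (25.1 to 43.9), which lay above those of NFKB1 (12.9 to 18.3), and those of IL1A (0.638 to 1.53) lay below those of TNFAIP3 (2.58 to 4.43). Between NFKB1 and TNFAIP3, each neighbour in this order overlapped the next in its range over libraries.

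No member passed the test in total mRNA, where 0.354% of the 14992 genes tested did, 0.0867% higher and 0.267% lower (53 genes, and 1799 at an unadjusted p under 0.05, of which TNFAIP3 was the only member). CXCL1 was at 3.68 and 12.8 CPM in the shNSi cultures and at 7.64 and 7.48 CPM in shDAP5. CXCL2 was at 4.37 and 21.4 CPM in shNSi and at 10.2 and 11.5 CPM in shDAP5. CXCL3 was at 2.13 and 6.18 CPM in shNSi and at 3.39 and 2.98 CPM in shDAP5. For all 3 chemokines shNSi culture 1 was the lowest and shNSi culture 2 the highest of the 4 libraries, with both shDAP5 cultures between them, and no member had both shDAP5 cultures above both controls, as 19.5% of genes did. IL1B had the same order, with 75.5 and 169 CPM in shNSi against 111 and 80.9 CPM in shDAP5, and so did CSF2, with 3.44 and 6.69 against 6.09 and 3.96 CPM. The values of the shNSi cultures thus enclosed those of shDAP5, and in these bulk samples fewer cells making an mRNA and less of it in each cell cannot be told apart.

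NFKB1, TNFAIP3 and IL1A lay closer together in the 2 controls than the other members. NFKB1 was at 71.9 and 74.9 CPM in shNSi and at 52.7 and 68.1 CPM in shDAP5. TNFAIP3 was at 21.0 and 17.4 CPM in shNSi and at 13.1 and 12.2 CPM in shDAP5, a log2 difference of -0.57 (SE 0.23) whose unadjusted edgeR p of 0.0240 became an adjusted p of 0.316. IL1A was at 3.03 and 3.25 CPM in shNSi and at 2.31 and 1.35 CPM in shDAP5. In these 3 genes the higher shDAP5 value was under the lower shNSi value, a separation seen in that direction in 22.9% of all genes, and it did not pass the test. NFKBIA (39.0 and 65.9 against 68.4 and 54.6 CPM) and RELB (12.2 and 27.0 against 20.6 and 13.8 CPM) overlapped between the groups. The median log2 difference of the members was -0.23, against 0.01 over all genes, and it was -0.70 without shNSi culture 1 and 0.54 without shNSi culture 2.

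**Figure D1:**
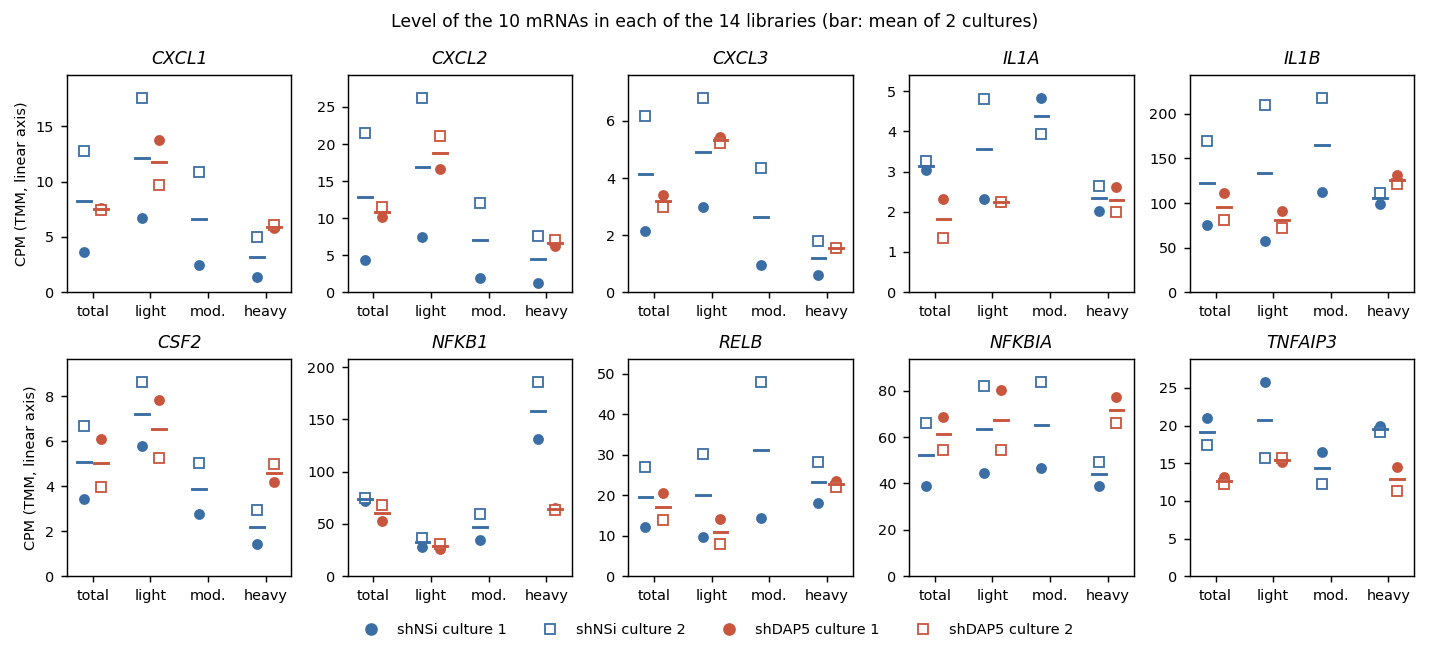
Level of each mRNA in CPM (linear axis from 0) in total mRNA and in light, moderate (mod., shNSi only) and heavy polysomes. Each symbol is a library, filled for culture 1 and open for culture 2, and bars are means of 2 cultures. CXCL1, CXCL2 and CXCL3 are lower in shNSi culture 1 than in shNSi culture 2 in every fraction, and NFKB1 in heavy polysomes lies at 131 and 186 CPM in shNSi against 65.1 and 63.4 CPM in shDAP5.

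The polysome position of each mRNA in the control cells was examined before that in depleted cells. In MB-231-shNSi, CXCL1, CXCL2, CXCL3 and CSF2 were under-represented on heavy polysomes relative to total mRNA, and NFKB1 was over-represented. The log2 ratio of heavy polysomes to total mRNA was -1.41 and -1.35 for CXCL1 in the 2 cultures, -1.75 and -1.49 for CXCL2, -1.82 and -1.78 for CXCL3, and -1.27 and -1.19 for CSF2. NFKB1 was at 0.87 and 1.31. These ratios were close in the 2 cultures although the chemokine levels themselves were not. The fitted log2 ratios were -1.42 (SE 0.28, adjusted p = 0.000117) for CXCL1, -1.64 (SE 0.28, adjusted p = 1.11e-05) for CXCL2, -1.84 (SE 0.34, adjusted p = 5.14e-05) for CXCL3, -1.27 (SE 0.30, adjusted p = 0.000837) for CSF2 and 1.04 (SE 0.24, adjusted p = 0.000535) for NFKB1. The test called 21.8% of all genes lower and 23.2% higher on heavy polysomes, against 4 and 1 of the 10 members. Without shNSi culture 2 CXCL2 alone was called, at -1.79, and without shNSi culture 1 all but CSF2 kept the call.

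IL1A, IL1B, RELB, NFKBIA and TNFAIP3 did not pass that test. Their fitted log2 ratios of heavy polysomes to total mRNA were -0.48 (SE 0.32), -0.15 (SE 0.25), 0.26 (SE 0.25), -0.26 (SE 0.24) and -0.01 (SE 0.24). IL1B differed in sign between the control cultures, at 0.39 and -0.60.

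Heavy against light polysomes of the same control cells separated the same 5 genes more widely, in a comparison that shares its heavy libraries with the one above. The log2 difference was -2.11 (SE 0.35, adjusted p = 3.4e-08) for CXCL1, -2.20 (SE 0.34, adjusted p = 4.01e-09) for CXCL2, -2.18 (SE 0.42, adjusted p = 1.59e-06) for CXCL3 and -1.85 (SE 0.37, adjusted p = 4.12e-06) for CSF2. NFKB1 was 4.57-fold higher in heavy than in light polysomes (log2 2.19, SE 0.33, adjusted p = 8.83e-10). Of all genes, 64.9% were called, 32.9% lower and 32.0% higher. On the moderate pool the chemokines and CSF2 took a place between the other pools, with mean log2 ratios to total mRNA of -0.41 ± 0.24 (SD, n = 2) for CXCL1, -0.99 ± 0.21 for CXCL2, -0.85 ± 0.48 for CXCL3 and -0.37 ± 0.06 for CSF2. IL1A (0.47 ± 0.28) and IL1B (0.47 ± 0.15) had their highest mean in the moderate pool, although in culture 2 IL1A was higher in the light pool.

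**Figure D2:**
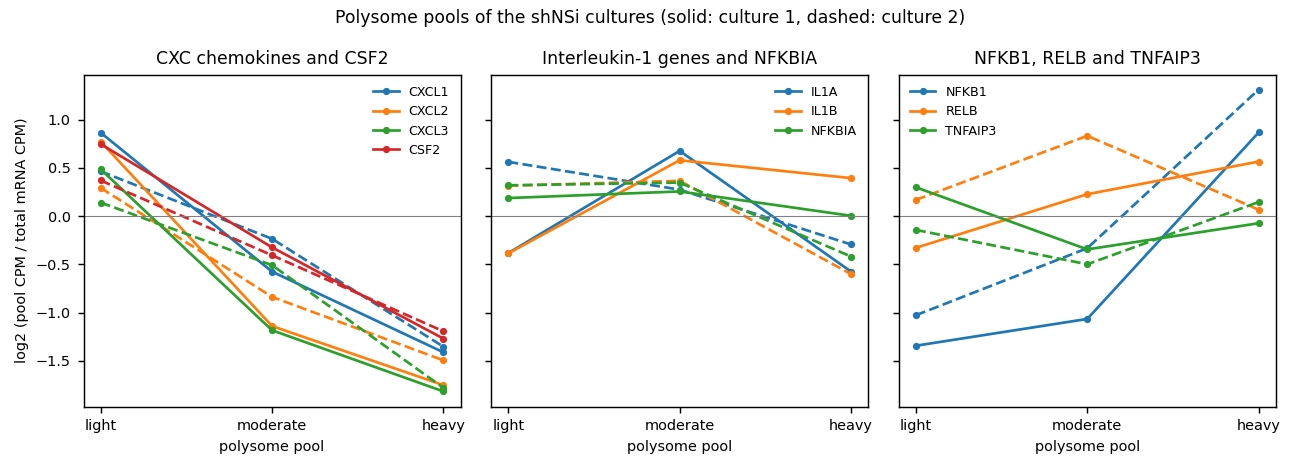
Log2 ratio of each polysome pool to total mRNA of the same shNSi culture, for light, moderate and heavy pools (solid line, culture 1; dashed line, culture 2; grey line, no difference from total mRNA). CXCL1, CXCL2, CXCL3 and CSF2 descend from light to heavy in both cultures, from means of 0.66, 0.53, 0.31 and 0.56 to means of -1.38, -1.62, -1.80 and -1.23, whereas NFKB1 ascends from -1.19 to 1.09.

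On heavy polysomes, CSF2 was called higher and NFKB1 lower in shDAP5 than in shNSi, and the other 8 members did not pass the test. CSF2 was at 1.43 and 2.92 CPM in shNSi and at 4.19 and 4.97 CPM in shDAP5, and NFKB1 was at 131 and 186 CPM in shNSi and at 65.1 and 63.4 CPM in shDAP5. CSF2 rose 2.23-fold (log2 1.16, SE 0.44, adjusted p = 0.0341) and NFKB1 fell to 0.428 of its control level (log2 -1.22, SE 0.33, adjusted p = 0.00242). The same test called 30.9% of the 14270 genes tested, 14.2% higher and 16.7% lower, so 2 of 10 members is no more than the share among all genes. The moderate pool was collected in shNSi only, so the heavy pools may not span the same part of the gradient in shDAP5. A difference in pool boundary and an effect of silencing cannot be told apart here. With shNSi heavy and moderate pools summed, 421 of 15184 genes were called.

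CXCL1 was at 1.38 and 4.99 CPM on heavy polysomes in shNSi and at 5.80 and 6.09 CPM in shDAP5, a log2 difference of 0.99 (SE 0.42, adjusted p = 0.0613). Its difference was 0.28 with shNSi heavy and moderate pools summed and -0.024 with offsets for coding length. It passed with at least 10 counts in every library (1.03) and with replicate numbers as a block, as labelled (1.19) or crossed (1.20). CXCL2 was at 1.30 and 7.60 CPM in shNSi and at 6.22 and 7.04 CPM in shDAP5, a log2 difference of 0.67 (SE 0.48, adjusted p = 0.291). CXCL3 was at 0.605 and 1.80 CPM in shNSi and at 1.54 and 1.55 CPM in shDAP5, a log2 difference of 0.45 (SE 0.51, adjusted p = 0.524). For CXCL2 and CXCL3 the shDAP5 cultures lay between the 2 controls. Leaving out shNSi culture 1 turned their differences to -0.20 and -0.22 and brought that of CXCL1 to 0.25 (adjusted p = 0.744), and leaving out shNSi culture 2 gave 2.36 for CXCL2 and 2.11 for CXCL1, both of which then passed the test. The lowest of these values rest on few reads, with 30 reads of CXCL2 and 14 reads of CXCL3 in heavy polysomes of shNSi culture 1.

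IL1B, the most abundant member per kb, was at 99.1 and 111 CPM in shNSi and at 131 and 121 CPM in shDAP5 on heavy polysomes (log2 0.33, SE 0.33, adjusted p = 0.455). IL1A was at 2.03 and 2.65 CPM in shNSi and at 2.62 and 1.99 CPM in shDAP5 (log2 0.06, SE 0.46, adjusted p = 0.940). The IL1B groups were apart and the IL1A groups overlapped, and neither passed the test.

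The inhibitors went in opposite directions on heavy polysomes without passing the test. NFKBIA was at 39.1 and 49.2 CPM in shNSi and at 77.2 and 65.9 CPM in shDAP5 (log2 0.77, SE 0.33, adjusted p = 0.0607), and TNFAIP3 was at 19.9 and 19.2 CPM in shNSi and at 14.6 and 11.4 CPM in shDAP5 (log2 -0.52, SE 0.34, adjusted p = 0.242). RELB, at 18.1 and 28.2 against 23.5 and 21.9 CPM, overlapped (log2 0.05, SE 0.34, adjusted p = 0.925). In all, CXCL1, IL1B, CSF2 and NFKBIA had both shDAP5 cultures above both controls, against 33.6% of all genes, and NFKB1 and TNFAIP3 had both below, against 33.2%. The call of CSF2 was lost without shNSi culture 1 (log2 0.64), shDAP5 culture 1 (1.19) or shDAP5 culture 2 (1.02), and that of NFKB1 without shNSi culture 2 (-1.01) or shDAP5 culture 2 (-1.21). CSF2 was also not called with DESeq2 (1.06), limma (0.72), no filter (1.06) or all 14 libraries in 1 fit (0.96), where NFKB1 was, and neither was called with shNSi heavy and moderate pools summed (0.61 and -0.54) or with offsets for coding length (0.20 and -0.55).

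Translation efficiency, the change on heavy polysomes relative to total mRNA, was tested in a fit with a term for each culture. It uses the same heavy pools, so pool boundary and silencing cannot be told apart in it either. Here 9 of the 10 members had a log2 change above 0, with a median of 0.66 against 0.09 over all 15374 genes tested, but the only call was a fall in NFKB1. The test called 13.1% of all genes, 4.85% higher and 8.23% lower. NFKB1 had log2 ratios of heavy polysomes to total mRNA of 0.87 and 1.31 in shNSi and of 0.30 and -0.10 in shDAP5, a change of -0.96 (SE 0.34, adjusted p = 0.0480). That call was lost without shNSi culture 1 (-1.20), shNSi culture 2 (-0.76) or shDAP5 culture 2 (-0.77). It was also lost by library size without TMM (-0.75), with limma (-0.79), with no filter (-0.99), with no culture term (-0.995) and with the shNSi heavy and moderate pools summed (-0.16). With the replicate numbers as a block and with offsets for coding length NFKB1 was not called either.

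The secreted members had the highest values. The log2 ratio of heavy polysomes to total mRNA for CXCL1 was -1.41 and -1.35 in shNSi and -0.40 and -0.30 in shDAP5, a change of 1.05 (SE 0.38, adjusted p = 0.0579). For CSF2 it was -1.27 and -1.19 in shNSi and -0.54 and 0.33 in shDAP5, a change of 1.14 (SE 0.42, adjusted p = 0.0583). For CXCL2 it was -1.75 and -1.49 in shNSi and -0.71 in both shDAP5 cultures, a change of 0.91 (SE 0.37, adjusted p = 0.0907). In all 3 genes the control cultures lay close together and below both shDAP5 cultures. In CSF2 the shDAP5 cultures lay farther from each other than the nearer of them lay from the controls. The adjusted p was just above the threshold of 0.05 for CXCL1 and CSF2, which passed it, at 1.10 and 1.58, without shDAP5 culture 1. In the other 3 omissions neither passed, with CXCL1 at 0.99 to 1.07 and CSF2 at 0.70 without shDAP5 culture 2 and 1.10 and 1.16 without either shNSi culture. Neither passed with shNSi heavy and moderate pools summed (0.53 and 0.70), with limma (0.67 and 0.70) or with no culture term (1.04 and 1.11). Both passed with at least 10 counts in every library (1.10 and 1.19) and with crossed replicate numbers as a block (1.05 and 1.11). CXCL3 was at -1.82 and -1.78 against -1.14 and -0.94 (change 0.77, SE 0.47, adjusted p = 0.268), and IL1A at -0.58 and -0.29 against 0.18 and 0.56 (change 0.81, SE 0.45, adjusted p = 0.225).

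Among the regulators other than NFKB1, NFKBIA had ratios of 0.00 and -0.42 in shNSi and of 0.17 and 0.27 in shDAP5 (change 0.46, SE 0.34, adjusted p = 0.373). RELB (change 0.14, SE 0.35) and TNFAIP3 (change 0.02, SE 0.35) overlapped, as did IL1B (change 0.54, SE 0.35). CXCL1, CXCL2, CXCL3, IL1A, CSF2 and NFKBIA had both shDAP5 cultures above both controls, as 31.1% of all genes did, and NFKB1 had both below, as 28.9% did.

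**Figure D3:**
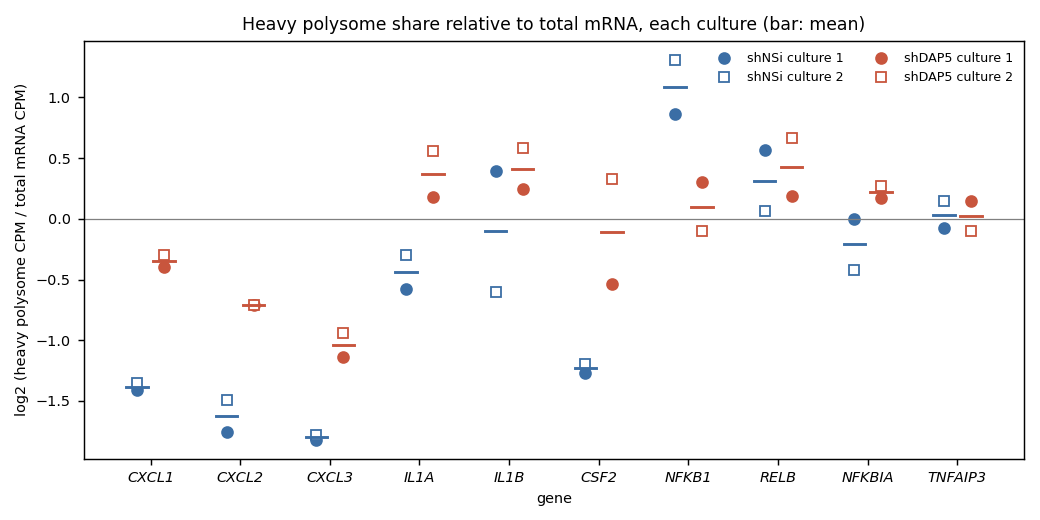
Log2 ratio of heavy polysome CPM to total mRNA CPM in each culture (filled, culture 1; open, culture 2; bars, means of 2 cultures; grey line, no difference from total mRNA). The ratios of CXCL1, CXCL2, CXCL3 and CSF2 are lower in both shNSi cultures than in both shDAP5 cultures, and that of NFKB1 is higher in both shNSi cultures.

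The order of the members in translation efficiency broadly followed the length of their coding sequences, a feature that the list had not used. CXCL1, CXCL2 and CXCL3 have coding sequences of 324 bases each and CSF2 one of 435, IL1B, IL1A and NFKBIA have 810, 816 and 954, and RELB, TNFAIP3 and NFKB1 have 1740, 2373 and 2910. Over all 12477 tested genes with a known coding length, the median change in heavy translation efficiency was 0.88 up to 500 bases, 0.56 from there to 1000 bases, -0.04 to 2000 bases, -0.56 to 3000 bases and -0.83 above. The test called 34.9% of the genes in the shortest class higher and none lower, and in the class of 2000 to 3000 bases, which holds NFKB1 and TNFAIP3, it called 20.8% lower and 0.144% higher. Within their own class CXCL3 was above 40.6% of genes, CXCL2 above 52.4%, CXCL1 above 64.7% and CSF2 above 71.5%. NFKB1 was above 25.3% of its class and TNFAIP3 above 79.2%, so no member stood at an edge of its class. With offsets for coding length fitted in each library no member passed the test, and the changes were 0.18 for CXCL1, -0.09 for CXCL3 and -0.33 for NFKB1, with a median of 0.16 over the members.

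The same classes also ordered the control cells. In MB-231-shNSi the median log2 ratio of heavy polysomes to total mRNA was -1.24 up to 500 bases, where 83.2% of genes were called lower on heavy polysomes, and 0.60 from 2000 to 3000 bases. CXCL1, CXCL2, CXCL3 and CSF2 (-1.42, -1.64, -1.84 and -1.27) and NFKB1 (1.04) thus lay on the side of zero on which most genes of their length lay.

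**Figure D4:**
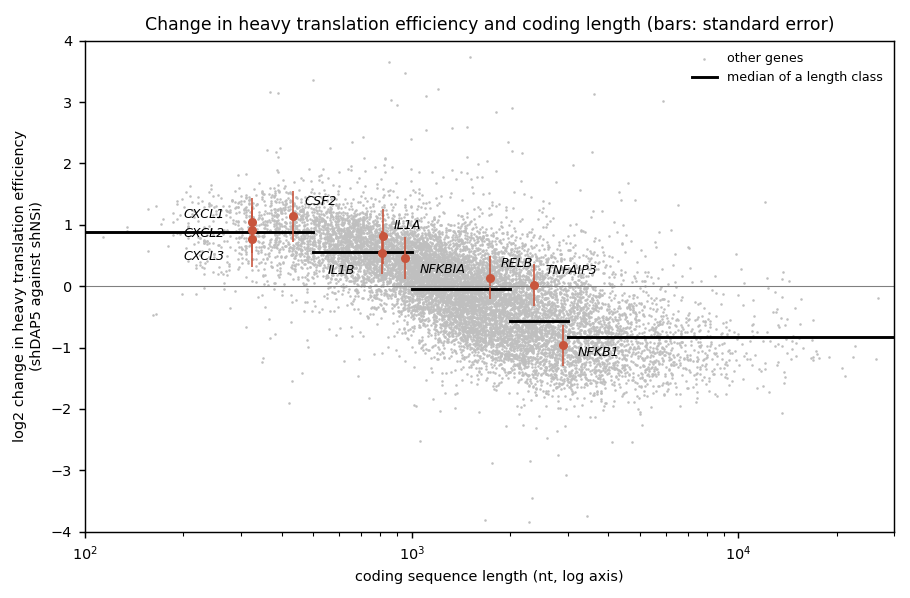
Log2 change in heavy translation efficiency (shDAP5 against shNSi) against coding sequence length in bases (log axis) for the tested genes with a known length (grey), with the 10 members in red (error bars, SE) and the median of each length class as a black line. The 9 other genes with values beyond them lie outside the axes. The members run from 1.14 for CSF2 to -0.96 for NFKB1, and the class medians from 0.88 to -0.83.

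Light polysomes gave no call among the members, nor among the 15529 genes tested with edgeR, of which 1330 had an unadjusted p under 0.05 and 105 were called by DESeq2. CXCL1 was at 6.70 and 17.6 CPM in shNSi and at 13.8 and 9.73 CPM in shDAP5. CXCL2 was at 7.46 and 26.2 CPM in shNSi and at 16.6 and 21.1 CPM in shDAP5. NFKB1 was at 28.3 and 36.8 CPM in shNSi and at 26.5 and 30.5 CPM in shDAP5. Each of these overlapped between the groups, and the chemokines again had a control culture at either end. IL1A (2.32 and 4.80 against 2.25 and 2.24 CPM) and TNFAIP3 (25.8 and 15.7 against 15.2 and 15.6 CPM) had both shDAP5 cultures below both controls, by a narrow margin, as 21.3% of genes did, and no member had both above, as 20.1% did. The medians were -0.14 for the members and -0.01 for all genes. Members were called when a control culture was left out, namely IL1A, IL1B and RELB without shNSi culture 1, and CXCL2 and TNFAIP3 without shNSi culture 2. Over all genes those omissions gave 4678 calls of 16190 and 781 of 16193.

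Light translation efficiency gave no call among the 15967 genes tested with edgeR either, with 833 at an unadjusted p under 0.05 and none by DESeq2. The result depends on which pool the shDAP5 light libraries hold, since their code resembles that of the shNSi moderate pool. With the moderate pool as the shNSi control, 4367 of 15859 genes were called, and 5 members with them, CXCL1, CXCL2, CXCL3 and TNFAIP3 higher and RELB lower (-1.11, adjusted p = 0.0131). On light polysomes that control gave 3940 calls among 15431 genes and none among the members. With the libraries taken by title, RELB was the only member under that unadjusted threshold, with a change of -0.58 (SE 0.24, edgeR adjusted p = 0.879), and it was called without shNSi culture 1, at -0.78. CXCL3 had both shDAP5 ratios above both controls, as 17.8% of genes did, and RELB had both below, as 18.1% did. The difference between the change on heavy and that on light polysomes was tested directly in 1 fit. It passed for no member, against 6.75% of the 15878 genes tested, with a difference of -1.14 (SE 0.39, adjusted p = 0.0761) for NFKB1, 1.23 (SE 0.48, adjusted p = 0.112) for CSF2 and 1.01 (SE 0.44, adjusted p = 0.159) for CXCL1.

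Across the 14 libraries the chemokines varied together. Pearson's r of log2 CPM was 0.97 between CXCL1 and CXCL2, 0.95 between CXCL1 and CXCL3, 0.95 between CXCL2 and CXCL3, and 0.94 between CXCL1 and CSF2. It was 0.61 between IL1A and IL1B and -0.46 between CXCL1 and NFKB1. The libraries of a culture share their cells and the pools share their place in the gradient, so these values describe the libraries and were not tested.

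The rest of the pathway was read from lists of genes with no member in them. Of the 8 other NF-kB and IkB family genes, BCL3 rose and NFKB2 fell on heavy polysomes, beside 14.2% and 16.7% of all genes, so the count is close to the share among all genes. BCL3, an atypical IkB protein that acts in the nucleus, was at 5.40 and 12.2 CPM in shNSi and at 40.3 and 37.6 CPM in shDAP5 (log2 2.23, SE 0.35, adjusted p = 2.78e-07). Its total mRNA was at 9.80 and 18.7 against 56.4 and 28.7 CPM (log2 1.61, adjusted p = 0.184). NFKB2, which encodes p100 and its product p52, was at 95.2 and 194 CPM in shNSi and at 53.7 and 52.4 CPM in shDAP5 (log2 -1.36, SE 0.33, adjusted p = 0.000756), and its heavy translation efficiency also fell (log2 -0.99, adjusted p = 0.0409), where it was the only call of the list, beside 8.23% of all genes called lower. NFKB2 resembles NFKB1 in role and, with 2703 coding bases, in length.

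Upstream of the factors, 6 of 20 receptors and adaptors fell on heavy polysomes and none rose, beside 16.7% and 14.2% of all genes. The coding sequences of the 6 have 1386 to 2715 bases, and among all genes of 1000 to 2000 bases and of 2000 to 3000 bases 13.7% and 34.8% fell. TLR3, a receptor for double-stranded RNA, went from 6.79 and 16.9 CPM to 3.39 and 3.06 CPM (log2 -1.79, SE 0.40, adjusted p = 0.000208). TLR2, a receptor for bacterial lipoproteins, went from 1.30 and 2.47 CPM to 0.699 and 0.597 CPM (log2 -1.45, SE 0.53, adjusted p = 0.0275). TNFRSF1B, a receptor for TNF, went from 45.0 and 64.4 CPM to 19.2 and 21.6 CPM (log2 -1.34, SE 0.34, adjusted p = 0.000946). Of these 3, TNFRSF1B also fell in total mRNA (log2 -1.27, adjusted p = 0.0246), where it was the only gene of the list to be called. The other 3, named only to complete the count, were IL1RAP (log2 -1.07), IRAK2 (-0.82) and RIPK1 (-1.13). In heavy translation efficiency IRAK2 (log2 -1.09, adjusted p = 0.0325) and RIPK1 (log2 -0.97, adjusted p = 0.0465) fell and none of the 20 rose, beside 8.23% and 4.85% of all genes. Of the 10 kinases, TBK1 alone was called, and it fell on heavy polysomes (log2 -0.95, adjusted p = 0.0182) and in heavy translation efficiency (log2 -0.97, SE 0.33, adjusted p = 0.0467). Over all genes 16.7% and 8.23% were called lower, so 1 of 10 is below the share on heavy polysomes and near that in heavy translation efficiency.

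Among 12 ubiquitin and feedback regulators, SHARPIN rose and TNIP3 fell on heavy polysomes, and SHARPIN rose and TAX1BP1 and ITCH fell in heavy translation efficiency. The shares over all genes were 14.2% higher and 16.7% lower on heavy polysomes, both above those of the list, and 4.85% and 8.23% in heavy translation efficiency. SHARPIN, a part of the linear ubiquitin ligase complex named here only to complete the count, had changes of 1.06 and 0.99. TNIP3, a partner of A20, went from 1.04 and 2.83 CPM to 0.803 and 0.318 CPM on heavy polysomes (log2 -1.67, SE 0.54, adjusted p = 0.0124). TAX1BP1, an adaptor of A20, and ITCH, a ubiquitin ligase, fell in translation efficiency by 1.09 (SE 0.34, adjusted p = 0.0293) and 1.07 (SE 0.35, adjusted p = 0.0375) on the log2 scale.

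Of 18 other secreted NF-kB targets, 8 passed the filter on low counts on heavy polysomes and 2 of those rose, beside 14.2% of all genes. Both have coding sequences of the class of 500 to 1000 bases (639 in IL6 and 600 in IL11), where 29% of genes rose. IL6 went from 6.83 and 17.7 CPM to 37.3 and 41.4 CPM (log2 1.77, SE 0.35, adjusted p = 3.21e-05) and IL11 from 46.9 and 85.2 CPM to 92.9 and 166 CPM (log2 1.05, SE 0.33, adjusted p = 0.0102). IL11 was not called with DESeq2 (0.96), all 14 libraries in 1 fit (0.85), shNSi heavy and moderate pools summed (0.59), coding length offsets (0.23), without shNSi culture 1 (0.59) or without shDAP5 culture 2 (0.57). Both encode cytokines of the gp130 family, and in total mRNA neither passed the test (log2 1.10 and 0.64). Of 13 cellular targets, 12 were tested on heavy polysomes, where TNFAIP2, TNFAIP8 and IER3 rose (log2 0.84, 1.18 and 1.01) and ICAM1, PTGS2 and PLAUR fell, beside 14.2% and 16.7% of all genes. ICAM1, an adhesion molecule for leukocytes, went from 89.3 and 171 CPM to 33.8 and 31.6 CPM (log2 -1.91, SE 0.34, adjusted p = 3.07e-06), and PTGS2, the inducible cyclooxygenase, from 6.40 and 21.0 CPM to 4.12 and 2.71 CPM (log2 -1.90, SE 0.40, adjusted p = 0.00014). PLAUR, the urokinase receptor, had a log2 change of -1.25. TNFAIP2, TNFAIP8, IER3 and PLAUR were named only to complete the count. In heavy translation efficiency 3 of the 13 fell, beside 8.23% of all genes, namely VCAM1, an adhesion molecule (log2 -1.56, SE 0.40, adjusted p = 0.0117), ICAM1 (log2 -1.21, adjusted p = 0.0174) and PTGS2 (log2 -1.63, adjusted p = 0.0113). VCAM1 was at 2.20 and 17.4 CPM on heavy polysomes in shNSi and at 4.33 and 3.10 CPM in shDAP5. The controls thus enclosed shDAP5, and its change there was not called (log2 -1.29, adjusted p = 0.411). Among genes of 1000 to 2000 bases, as ICAM1 and PTGS2, 4.03% fell in heavy translation efficiency, and of 2000 to 3000 bases, as VCAM1, 20.8%.

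Of the 16 pathway genes named for the size of their change, those of the AU-rich list included, 12 lost the call with coding length offsets, and BCL3, TNFRSF1B, ICAM1 and PTGS2 kept it. With shNSi heavy and moderate pools summed 11 lost it, with library size 7, with DESeq2 4 of the 15 that had an adjusted p, and with limma 3. With no culture term all 4 genes named in heavy translation efficiency lost it. With all 14 libraries in 1 fit 3 of 12 lost it, with the replicate block 3 and with no filter 1. All 16 lost it without shDAP5 culture 2, 11 without shNSi culture 2, 5 without shNSi culture 1 and 2 without shDAP5 culture 1.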

How the data were processed

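The authors deposited whole-number read counts per gene symbol for 14 libraries, without normalization. The submitters' processing notes name STAR 2.6.0a, limma and build hg19, and the name of the deposited table points to featureCounts and, by the abbreviation rev, perhaps to reverse-strand counting. The annotation is not given in the sources used here. Replicates carry numbers in the labels, and the paper's figure captions describe 2 sets of studies done independently. The members and lists were chosen with earlier results of these data known. No column of the table was left unused.

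Counts were analysed in R 4.3.3 with edgeR 4.0.16. Low counts were removed by filterByExpr, TMM factors were computed and the robust quasi-likelihood test was run, with 4 libraries per fit for each fraction and 8 for translation efficiency, which had a term for each culture and the interaction of fraction and shRNA. The heavy to light comparison in shNSi used all 3 polysome pools with a term for each culture. The threshold was an adjusted p of 0.05 over all genes tested. Levels are CPM with TMM factors over all 14 libraries. All 10 members passed every filter. The scripts were tested on simulated counts with known changes.

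The named genes are the 10 members, EIF4G2 and, of each pathway list, up to 3 genes with the largest change among those called on heavy polysomes, in heavy translation efficiency or in total mRNA. Alternatives were DESeq2 1.42.0, library size without TMM, limma 3.58.1 on quantile-normalized log2 of CPM plus 1, no filter, at least 10 counts in every library, all 14 libraries in 1 fit, offsets for coding length, no culture term, the moderate pool of shNSi in place of its light pool or added to its heavy pool, the replicate block, and each culture left out. The block with its pairing crossed was added after seeing the data. Positions, coding lengths and 3′ untranslated regions came from GENCODE 29 and promoters from RefSeq.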

Additional observations from a re-analysis of the deposited data

Results flagged for a closer look

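No member met a criterion for a closer look. Of the named pathway genes, 5 had a change with DAP5 silencing that differed between heavy and light polysomes by the interaction term of an edgeR fit over both fractions, which called 6.75% of the 15878 genes tested. These genes had been named for the size of their called change on heavy polysomes, in heavy translation efficiency or in total mRNA, and the interaction uses the same heavy libraries, so the count is a description and not independent evidence. It also rests on the shDAP5 light libraries as titled. The change on heavy minus that on light polysomes was -1.76 for TLR3 (adjusted p = 0.0299), -1.79 for ITCH (adjusted p = 0.0209), -1.50 for ICAM1 (adjusted p = 0.0299), -1.91 for PTGS2 (adjusted p = 0.0332) and -1.89 for VCAM1 (adjusted p = 0.0347). The coding sequences of these genes run from 1599 bases for ICAM1 to 2715 bases for TLR3. The part of coding length in these differences was not tested.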

How the results depend on the processing

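Members called on heavy polysomes (2, beside 4414 of all genes) became 1 with all 14 libraries in 1 fit, with DESeq2 and with no filter on low counts (3847, 4037 and 3793 of all genes), 3 by library size (3643), 4 with at least 10 counts in every library (4315), and 0 with coding length offsets (1447) and with shNSi heavy and moderate summed (421). With limma the 2 called were NFKB1 and NFKBIA (3799). The call in heavy translation efficiency (1, beside 2012) became 3 with at least 10 counts in every library (2488), and 0 with coding length offsets (483), library size (0), limma (408), no filter (1946), no culture term (0) and heavy and moderate summed (0). With the moderate pool as shNSi control, light translation efficiency had 5 calls instead of 0, beside 4367 of 15859 genes, and light polysomes still 0, beside 3940 of 15431 genes. Leaving out 1 culture gave 0 to 3 calls on heavy polysomes, 0 to 3 in heavy and 0 to 1 in light translation efficiency, 0 to 3 on light polysomes and 1 to 5 for shNSi heavy over total. DESeq2 gave no adjusted p in heavy translation efficiency for 4 members (CXCL1, CXCL3, IL1A and CSF2). The causes were not tested. Of 823 alternative values, 609 kept their direction and side of the threshold.

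Whether the replicate numbers pair shNSi with shDAP5 cultures is not stated in the labels, and 2 cultures a group cannot settle it. Deviations of same-numbered libraries correlated at -0.10 in total mRNA, 0.05 on heavy and light polysomes, -0.19 in heavy and -0.03 in light translation efficiency. With the replicate block, 5 members were called on heavy polysomes and 0 in heavy translation efficiency, beside 4710 and 688 of all genes, and with the pairing crossed 2 and 4, beside 3880 and 4133. In neither form was a member called in total mRNA, light polysomes or light translation efficiency.

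On heavy polysomes, coding length offsets turned CXCL1 to -0.024, CXCL2 to -0.35, CXCL3 to -0.56, IL1A to -0.46 and IL1B to -0.19, and summing turned CXCL3 to -0.31, IL1A to -0.54, IL1B to -0.081 and RELB to -0.22. IL1A and RELB were at -0.13 and -0.14 in the fit of 14 libraries, -0.031 and -0.040 with DESeq2 and -0.035 and -0.047 with no filter, and IL1A was at -0.13 with limma. In heavy translation efficiency CXCL3 was at -0.090 with length offsets, and TNFAIP3 at -0.047 with DESeq2 and -0.010 with no filter. RELB was at -0.065 in shNSi heavy over total and -0.071 in heavy over light by library size. TNFAIP3 in shNSi heavy over total was at 0.043 with DESeq2 and 0.035 with no filter, and at 0.0046 in heavy over light with no filter. With 1 culture left out, heavy polysome changes ran from -0.20 to 2.36 for CXCL2, -0.22 to 1.36 for CXCL3, -0.23 to 0.23 for IL1A and -0.32 to 0.34 for RELB, heavy translation efficiency from -0.13 to 0.38 for RELB and -0.11 to 0.13 for TNFAIP3, and shNSi heavy over total from -0.63 to 0.35 for IL1B and -0.12 to 0.12 for TNFAIP3.

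Library size without TMM moved the median of all genes from 0.09 to 0.34 on heavy polysomes and to 0.30 in heavy translation efficiency, where 0 of all genes were called, and the calls on heavy polysomes split into 2504 higher and 1139 lower in place of 2024 and 2390. The median of the members less that of all genes stayed at 0.31 and 0.57, beside 0.30 and 0.57. Without shDAP5 culture 2 only 2 of all genes were called on heavy polysomes, and without shNSi culture 2 only 4 in heavy translation efficiency. The precision is limited by 2 cultures a group and, for the low members, by depth, with as few as 14 reads of CXCL3 in a heavy library. Leaving out a culture in shNSi heavy over light was not run, since no residual degrees of freedom are left.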

Other observations

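Regulators that bind AU-rich mRNAs were followed as a list of 9 genes, since such elements abound in the secreted members. On heavy polysomes ZFP36, which encodes the mRNA-destabilizing protein tristetraprolin, rose and KHSRP, which encodes another decay-promoting protein, fell, and in total mRNA, light polysomes and both translation efficiencies no gene of the list was called. Over all genes 14.2% rose and 16.7% fell on heavy polysomes, so 1 of 9 in each direction is no more than that share. ZFP36 was at 16.8 and 20.6 CPM in shNSi and at 26.9 and 40.9 CPM in shDAP5 on heavy polysomes (log2 0.93, SE 0.34, edgeR adjusted p = 0.0250). KHSRP was at 782 and 1002 CPM in shNSi and at 397 and 364 CPM in shDAP5 (log2 -1.15, SE 0.37, edgeR adjusted p = 0.0117). Their coding sequences have 999 and 2136 bases.

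The genes whose levels over the 14 libraries were most like the mean standardized log2 CPM of the 6 secreted members, among 9381 genes with a mean of at least 10 CPM, were KIFC2, TRIM16L, TMEM158, ANKRD13D and CSF3, with Pearson's r of 0.94, 0.91, 0.91, 0.91 and 0.91. CSF3 encodes the granulocyte growth factor G-CSF. The mean standardized level of the 6 secreted members was lowest in heavy polysomes of shNSi culture 1 (-1.64) and highest in light polysomes of shNSi culture 2 (1.46), and in shDAP5 it ran from -0.37 to 0.51.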
